A study of Mus musculus with 8 samples.

Results

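Microglia are the resident macrophages of the brain parenchyma, and border macrophages line its vessels and meninges. Genes that mark these cells or serve their work were examined in the prefrontal cortex (PFC) of mice that overexpressed Rnf146 in neurons. The set was chosen by gene symbol and holds 43 symbols, of which 42 had a row among the 15039 genes of the expression table. *Pf4*, a chemokine that marks border macrophages, had no row.

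Total RNA of the PFC was sequenced in 8 samples, 4 from Rnf146-overexpressing and 4 from eGFP-overexpressing mice. All were wild-type male C57BL/6NCrljOri mice that received AAV2/1 on both sides of the PFC at 6 weeks of age, and the tissue was taken 4 weeks later. The virus carried either mouse Rnf146 with eGFP or eGFP alone, so the controls also carried AAV and eGFP. In both vectors expression was driven by hsyn, the human synapsin promoter, which is active in neurons and not in microglia, and the Rnf146 mice had been checked by the authors for overexpression and for a social deficit before sequencing. The deposited values are on a log2 scale and ran from 7.86 to 18.8. The depth of the libraries is unknown, because neither reads nor counts are part of the table.

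For every gene the eGFP and the Rnf146 value with the same replicate number added up to the same sum in all 4 replicate numbers, with a largest spread of 1.4e-13. A gene therefore carried its mean and 4 pair differences, and differences are given as Rnf146 minus eGFP within a pair, on this log2 scale. After this centring, the values of the groups do not overlap exactly when all 4 differences have one sign. The median difference of all genes was at most 0.0037 from 0 in any pair. *Rnf146* (chromosome 10 of GRCm39, 29216737 to 29238438, minus strand) had values of 10.35, 10.50, 10.43 and 10.47 in the eGFP samples and of 13.17, 13.01, 13.09 and 13.05 in the Rnf146 samples. Its 4 pair differences were 2.82, 2.51, 2.66 and 2.58, with a mean of 2.64 ± 0.13 (SD of 4 pairs). Each gene was tested in limma, blocking on the pair, and was called at a Benjamini-Hochberg adjusted p of 0.1 or less, the threshold of the study.

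Microglia depend on the receptor CSF1R for survival and on the transcription factors PU.1 and IRF8 for their identity. They sense ATP, chemokines, lipids and other cues through surface receptors, some of which signal through activating or inhibitory tyrosine motifs in adaptors or receptors. They also produce most of the complement protein C1q in the brain, which tags synapses and debris, and they digest what they take up in lysosomes rich in proteases such as cathepsin S.

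The 3 chains of C1q are encoded side by side on chromosome 4 of GRCm39, within 20.2 kb from 136606009 to 136626161, all on the minus strand. They are shown because all 3 had differences of like size, given further on. The 250 bases before the annotated start of each gene (GENCODE vM39) are printed 5′ to 3′ on the gene's strand, and capitals mark the letters GAGGAAG, a core that PU.1 binds, or GGAAGT, a core of the ETS family to which PU.1 belongs, on either strand.
C1qa, chr4:136626162-136626411: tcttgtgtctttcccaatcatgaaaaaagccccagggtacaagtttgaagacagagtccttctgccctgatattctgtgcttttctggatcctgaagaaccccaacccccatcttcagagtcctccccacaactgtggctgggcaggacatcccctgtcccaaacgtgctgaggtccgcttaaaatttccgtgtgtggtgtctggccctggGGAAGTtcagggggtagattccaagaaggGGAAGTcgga
C1qc, chr4:136620377-136620626: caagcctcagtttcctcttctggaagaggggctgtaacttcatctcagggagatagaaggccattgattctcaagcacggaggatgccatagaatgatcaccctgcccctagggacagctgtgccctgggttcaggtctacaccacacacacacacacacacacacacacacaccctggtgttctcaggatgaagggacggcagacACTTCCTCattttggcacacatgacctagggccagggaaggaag
C1qb, chr4:136613512-136613761: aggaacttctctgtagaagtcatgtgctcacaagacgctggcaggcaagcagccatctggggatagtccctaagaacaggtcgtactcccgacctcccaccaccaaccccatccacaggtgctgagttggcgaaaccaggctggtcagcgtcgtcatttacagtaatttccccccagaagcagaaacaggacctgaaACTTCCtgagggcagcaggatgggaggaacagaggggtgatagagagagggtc

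All 3 windows hold GGAAGT, in *C1qa* at 2 places, and every match lies within 53 bases of the start. In *C1qc* it overlaps the only GAGGAAG of the 3 windows, which lies 37 to 43 bases before the start. In windows of the same length, GGAAGT was present in 14 of the 41 members with an annotated start (34.1%) and in 19.6% of 13184 protein-coding genes of the table. GAGGAAG was present in 9 of the 41 (22%) and in 10.6% of all. The composite ETS-IRF element, which PU.1 can bind together with IRF8, was in 0 of the 41 and in 2.19% of all. The core GGAAGT was added to the search after the 3 sequences had been seen.

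Over the whole set, 38 of the 42 genes had a mean difference below 0, beside 49.5% of all genes. The median difference of the 42 genes was -0.11, and over all genes it was 0.00086. The mean over the 42 genes was -0.13, -0.16, -0.11 and -0.15 in the 4 pairs. The 4 pairs thus gave nearly the same mean, -0.13 ± 0.02 (SD of 4 pairs), with 33 to 34 of the 42 genes below 0 in each. In bulk tissue, fewer cells of a type and less RNA per cell cannot be told apart.

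Of the 42 genes, 3 fell by the test across all genes, *Lyz2*, *C1qb* and *Ctss*, and 0 rose. The share called lower over all genes was 0.432%, the share called higher was 0.818%, and 1.25% were called in either direction. At an adjusted p of 0.05 or less, *Lyz2* was the single member called, beside 0.0864% of all genes called lower. At an unadjusted p below 0.05, 20 of the 42 were lower and 0 higher, beside 5.98% and 6.45% of all genes. Without the replicate block, which takes the centred values for independent samples, 26 of the 42 were called lower, beside 10.4% of all genes, and 0 higher.

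The groups did not overlap for 23 of the 42 genes, all lower in the Rnf146 samples, beside 10.2% of all genes lower and 10.4% higher in all 4 pairs. A further 9 genes were lower in 3 pairs, 6 in 2 pairs and 4 in 1 pair. None of the 42 was higher in all 4 pairs. The count of genes by the number of pairs in which they were lower is drawn for the set and for all genes.

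**Figure D1:**
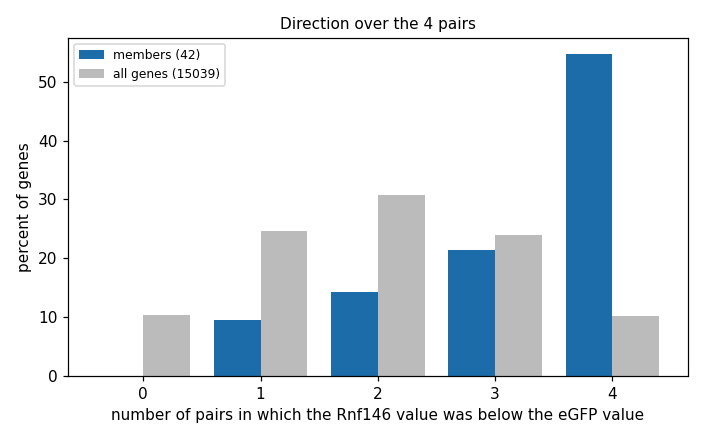
Percent of genes (y axis) by the number of pairs, 0 to 4, in which the Rnf146 value was below the eGFP value (x axis), for the 42 members (blue bars) and all 15039 genes (grey bars). The members pile up at 4 pairs, with 23 genes, and none lies at 0 pairs, while all genes are spread evenly on both sides.

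**Figure D2:**
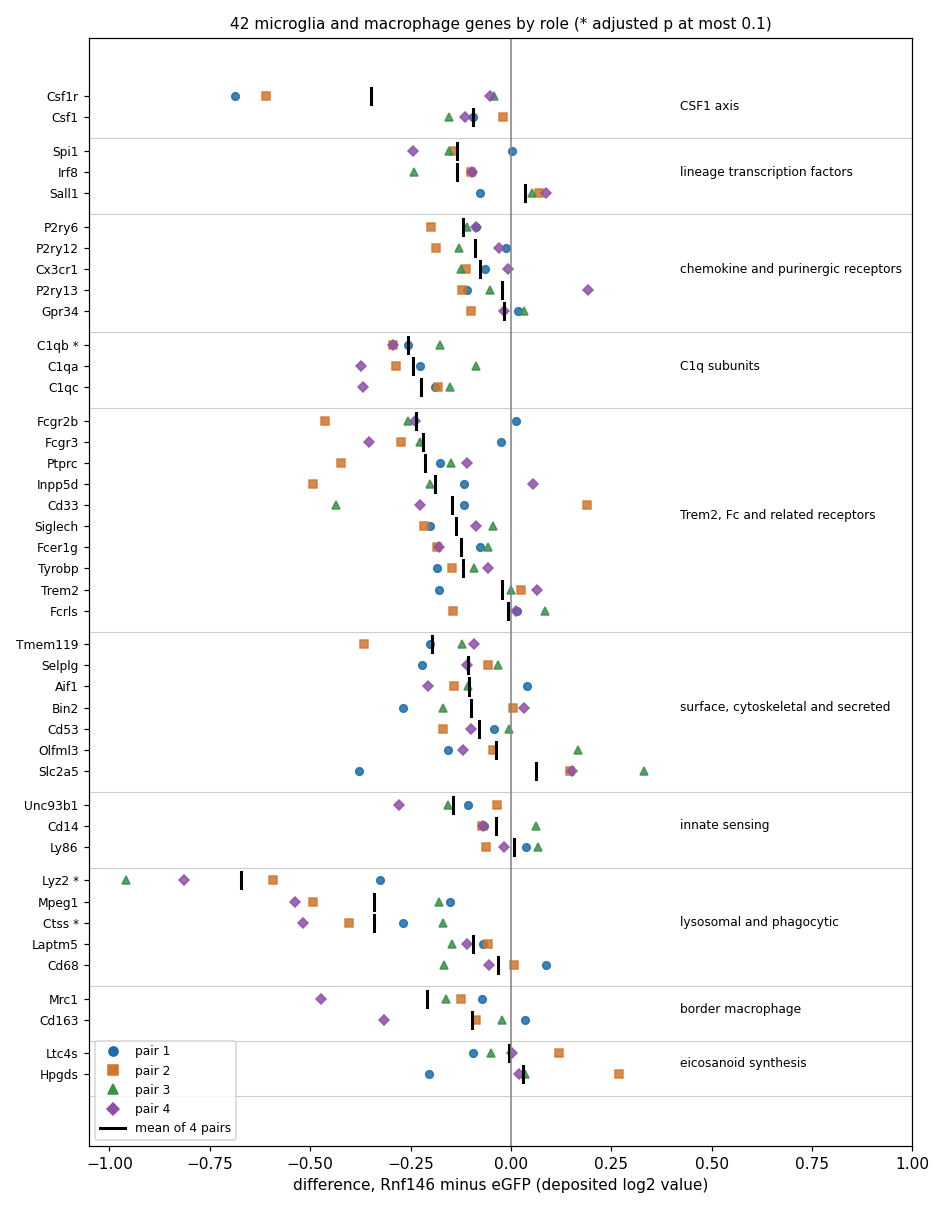
Difference between the Rnf146 and the eGFP value of each pair (x axis, log2 value) for the 42 members, 1 gene per line, grouped by role. Symbols are the 4 pairs and black bars their mean. An asterisk marks the 3 genes with an adjusted p of 0.1 or less, and most black bars lie left of 0.

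The lysosomal and phagocytic genes had the largest differences of the role groups, with a mean of -0.30 ± 0.11 (SD of 4 pairs) over 5 genes, 2 of them called. *Lyz2* encodes lysozyme M, an antibacterial enzyme of macrophages and other myeloid cells, and lies on chromosome 10 of GRCm39 (117111557 to 117118346, minus strand). Its values were 9.18, 9.31, 9.49 and 9.42 in the eGFP samples and 8.85, 8.72, 8.53 and 8.61 in the Rnf146 samples. All 4 pair differences were below 0, and the gap was smallest in pair 1 and largest in pair 3. *Lyz2* fell by 0.67 ± 0.28 (SD of 4 pairs) on the log2 scale (95% confidence interval -0.89 to -0.46, adjusted p = 0.0237 from limma). Lysozyme has a near-identical copy in the mouse, *Lyz1*, which has no row in the table, so how shared reads were divided is uncertain.

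*Ctss* encodes cathepsin S, the microglial cysteine protease (chromosome 3, 95433963 to 95463717, plus strand). Its values were 10.71, 10.78, 10.67 and 10.84 in the eGFP samples and 10.45, 10.38, 10.50 and 10.32 in the Rnf146 samples. The groups did not overlap, with the widest gap in pair 4. *Ctss* fell by 0.34 ± 0.15 (SD of 4 pairs), with a 95% interval of -0.48 to -0.20 and an adjusted p of 0.0686 from limma.

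*Mpeg1* encodes perforin-2, a pore-forming protein of phagosomes. Its differences were -0.15, -0.49, -0.18 and -0.54, and the mean of -0.34 ± 0.20 (SD of 4 pairs) had an adjusted p of 0.113 from limma, just outside the threshold. The gap was wider in pairs 2 and 4 than in pairs 1 and 3. *Laptm5*, which encodes a lysosomal membrane protein, had small and even differences of -0.07, -0.06, -0.15 and -0.11. *Cd68*, a lysosomal glycoprotein often used as a marker of phagocytic activity, had the smallest mean difference of the group, with 0.09, 0.01, -0.17 and -0.05 in the pairs. Its mean of -0.03 lay within the spread between pairs (SD 0.11, 95% interval -0.15 to 0.09).

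The C1q subunits had similar differences, with a mean of -0.24 ± 0.09 (SD of 4 pairs) over the 3 genes. *C1qb* had values of 10.26, 10.28, 10.22 and 10.28 in the eGFP samples and of 10.003, 9.98, 10.04 and 9.98 in the Rnf146 samples. Its 4 pair differences were -0.26, -0.29, -0.18 and -0.29, and after the centring the 8 values hold no more than these. *C1qb* fell by 0.26 ± 0.06 (SD of 4 pairs), with a 95% interval of -0.36 to -0.15 and an adjusted p of 0.0682 from limma.

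The differences of *C1qa* were -0.23, -0.29, -0.09 and -0.37, with a mean of -0.24 and an adjusted p of 0.130. Those of *C1qc* were -0.19, -0.18, -0.15 and -0.37, with a mean of -0.22 and an adjusted p of 0.136. All 3 subunits, whose promoters are printed above, were thus lower in all 4 pairs, and the intervals of *C1qa* and *C1qc* (-0.37 to -0.11 and -0.34 to -0.10) largely cover that of *C1qb*. The call of *C1qb* and the lack of a call for the other subunits do not show that they differ, a difference that was not tested.

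The 3 calls depended on which pairs were included. Without pair 4 none of the 3 was called, with adjusted p-values from limma of 0.175 for *Lyz2*, 0.316 for *C1qb* and 0.294 for *Ctss*. Without pair 2, *Lyz2* stayed at 0.0992, and *C1qb* and *Ctss* had 0.294 and 0.287. Without pair 1, on the other hand, 6 members were called, which added *Mpeg1*, *Fcgr3* and *Fcgr2b*. The calls over all genes moved with the pairs as well. With all pairs 65 genes were called lower, beside 0 without pair 4, 3 without pair 2 and 119 without pair 1. Over 13 alternative settings the adjusted p ran from 0.00211 to 0.360 for *Lyz2*, from 0.00066 to 0.513 for *C1qb* and from 0.00388 to 0.513 for *Ctss*, and all 3 stayed below 0 in each. The lowest p came from the fit without the block and the highest from the fit with striatal marker genes as a covariate.

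**Figure D3:**
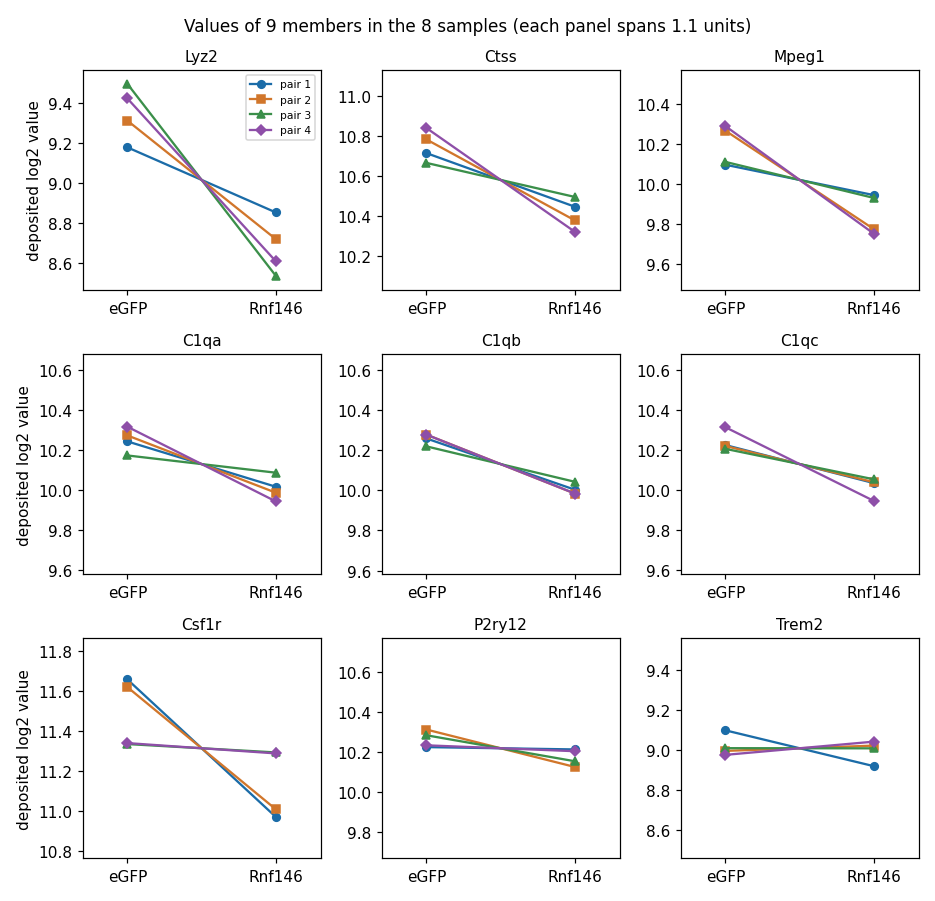
Deposited log2 value (y axis, 1.1 units in each panel) of 9 members in the eGFP and the Rnf146 sample of each pair (x axis), with a line for each pair. The lines of Lyz2, Ctss, Mpeg1 and the C1q subunits all slope down, those of Csf1r slope down steeply in pairs 1 and 2 only, and those of P2ry12 and Trem2 are shallow, apart from pair 1 of Trem2.

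*Csf1r*, the receptor on which microglia depend, had the largest SD of the pair differences among the 42 genes. Its values were 11.66, 11.62, 11.34 and 11.34 in the eGFP samples and 10.97, 11.01, 11.29 and 11.29 in the Rnf146 samples. The differences were -0.69 and -0.61 in pairs 1 and 2 and -0.04 and -0.05 in pairs 3 and 4, so the sign was shared and the size was not. The mean of -0.35 ± 0.35 (SD of 4 pairs) equalled its spread and was not called (adjusted p = 0.257 from limma). *Csf1* encodes a ligand of this receptor that neurons and glia release. Its differences were -0.09, -0.02, -0.15 and -0.11, with an adjusted p of 0.456.

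Among the lineage transcription factors, *Irf8* was lower in all 4 pairs, with differences of -0.10, -0.10, -0.24 and -0.10 (adjusted p = 0.295). *Spi1*, which encodes PU.1, had differences of 0.0028, -0.14, -0.15 and -0.24 and an adjusted p of 0.323. *Sall1*, a repressor that keeps microglia distinct from other macrophages, had -0.08, 0.07, 0.05 and 0.09. *Irf8* and *Spi1* had the same mean of -0.13, while *Sall1* was at 0.03 with a 95% interval of -0.08 to 0.15. None of the 3 factors was called, and at an unadjusted p below 0.05 *Irf8* and *Spi1* were lower.

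The chemokine and purinergic receptors, by which microglia read fractalkine, nucleotides and lysophosphatidylserine, stayed closer to 0, with a mean of -0.07 ± 0.06 (SD of 4 pairs) over 5 genes. *P2ry6*, a receptor for UDP, had the largest differences of the group, -0.09, -0.20, -0.11 and -0.09, and an adjusted p of 0.284. *Cx3cr1*, the fractalkine receptor, had -0.06, -0.11, -0.12 and -0.01. *P2ry12*, the ADP receptor that guides microglial processes, had -0.01, -0.19, -0.13 and -0.03. These 3 genes were lower in all 4 pairs by small amounts, and none was called (adjusted p of 0.533 for *Cx3cr1* and 0.511 for *P2ry12*). *Gpr34*, a receptor for lysophosphatidylserine, had 0.02, -0.10, 0.03 and -0.02, a mean of -0.02, and *P2ry13* a mean of -0.02 ± 0.15 (SD of 4 pairs) as well. *P2ry12* and *P2ry13* lie within *Med12l*, and *Gpr34* overlaps *Cask*, each on the opposite strand. The mean differences of *Med12l* and *Cask* were -0.0038 and 0.06, and the use of strand in the authors' counting is not given in the sources used here.

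The 10 genes of the Trem2, Fc and related receptors and of their signalling all had a mean below 0, and 7 had an unadjusted p below 0.05, yet 0 were called. Their mean was -0.14 ± 0.05 (SD of 4 pairs). Of the adaptors with an activating motif, *Tyrobp* (DAP12) had -0.19, -0.15, -0.09 and -0.06, and *Fcer1g*, the common Fc receptor gamma chain, had -0.08, -0.18, -0.06 and -0.18. The means of the 2 adaptors were alike, -0.12 each, with adjusted p-values of 0.336 and 0.319. *Trem2*, the lipid receptor that signals through DAP12, had -0.18, 0.03, -0.00085 and 0.07 and a mean of -0.02, with an interval of -0.14 to 0.10.

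The Fc receptors for IgG ranked first in this group. The inhibitory *Fcgr2b* had the lowest mean, with differences of 0.01, -0.46, -0.26 and -0.24 (adjusted p = 0.231). The activating *Fcgr3* had -0.03, -0.27, -0.23 and -0.35 (adjusted p = 0.195). Both were close to 0 in pair 1 and clearly lower in the other pairs. The coding sequences of the Fc receptor genes are alike in part, and whether reads were shared between them was not tested. *Ptprc*, which encodes CD45, had -0.18, -0.42, -0.15 and -0.11 (adjusted p = 0.193), and *Siglech*, a lectin of microglia, had -0.20, -0.22, -0.04 and -0.09 (adjusted p = 0.323). *Fcrls*, a microglial member of the Fc receptor-like family, had the highest mean of the 10, -0.01, with 0.02, -0.14, 0.08 and 0.01. *Inpp5d*, the phosphatase SHIP1, and *Cd33* had means of -0.19 and -0.15 and the widest spreads of the group, with SDs of 0.23 and 0.26.

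Among the surface, cytoskeletal and secreted markers, *Tmem119*, a membrane protein of parenchymal microglia, had the lowest mean. Its differences were -0.20, -0.37, -0.12 and -0.09, with a mean of -0.20 ± 0.12 (SD of 4 pairs) and an adjusted p of 0.219. *Selplg*, the ligand of P-selectin, had -0.22, -0.06, -0.03 and -0.11, and the tetraspanin gene *Cd53* had -0.04, -0.17, -0.0045 and -0.10. All 3 were lower in all 4 pairs, without a call. *Aif1*, which encodes IBA1, the usual histological marker of microglia, had a mean of -0.10 ± 0.10 and was lower in 3 pairs. *Bin2* and *Olfml3* had means of -0.10 and -0.04, with 2 and 3 pairs below 0. *Slc2a5*, the fructose transporter GLUT5, had the highest mean of all 42 genes, 0.06 ± 0.31 (SD of 4 pairs), and its differences of -0.38, 0.15, 0.33 and 0.15 set pair 1 against the others.

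Of the innate sensing genes, *Unc93b1*, the chaperone of endosomal Toll-like receptors, was lower in all 4 pairs, with -0.11, -0.03, -0.16 and -0.28 (adjusted p = 0.324). *Cd14*, a co-receptor for lipopolysaccharide, had -0.07, -0.07, 0.06 and -0.07. *Ly86* (MD-1), a partner of the Toll-like receptor homologue RP105, had 0.04, -0.06, 0.07 and -0.02. The means of *Cd14* and *Ly86* were -0.04 and 0.01, the latter turning to -0.0061 after quantile normalization, and neither was distinguishable from 0. *Cd14* had the lowest mean value of the 42 genes, 8.26, so its small difference may be compressed and does not show that it was unchanged.

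The border macrophage genes were represented by *Mrc1* and *Cd163*, the mannose and the haemoglobin-haptoglobin scavenger receptor. *Mrc1* had -0.07, -0.12, -0.16 and -0.47 (adjusted p = 0.255), and *Cd163* had 0.04, -0.09, -0.02 and -0.32 (adjusted p = 0.548). In both genes pair 4 carried most of the mean. The eicosanoid enzymes *Hpgds*, a prostaglandin D synthase, and *Ltc4s*, leukotriene C4 synthase, had means of 0.03 and -0.01. *Hpgds* had -0.20, 0.27, 0.03 and 0.02 and *Ltc4s* -0.09, 0.12, -0.05 and 0.0034, with no shared direction.

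Across the 42 genes, the differences of one pair were related to those of another to a varying degree. Pearson's r between pairs over the 42 genes ran from 0.06 (pairs 1 and 3) to 0.66 (pairs 3 and 4), and over all genes it ran from 0.02 to 0.40. The genes of a sample share their library, so these values are a description.

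Further lists of genes of these cells, their partners and their states were read in the same way. Of 27 further microglial genes, 25 had values, 22 of them below 0, and the list mean was -0.13, -0.10, -0.06 and -0.06 in the pairs. None was called by limma, while 10 were lower and 1 higher at an unadjusted p below 0.05. *Pld4*, an endolysosomal exonuclease, had the lowest mean, with -0.26, -0.23, -0.30 and -0.07 (adjusted p = 0.143). *Rgs10*, a regulator of G protein signalling, had the highest, with 0.11, 0.14, 0.11 and 0.23 (adjusted p = 0.257).

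Of the 16 signalling partners of TREM2 and CSF1R, 13 had values with a list mean of -0.07 ± 0.02 (SD of 4 pairs), 0 calls by limma and 2 lower at an unadjusted p below 0.05. The range went from *Pik3cd*, a leukocyte PI 3-kinase subunit, at -0.22 (-0.19, -0.30, -0.11 and -0.28, adjusted p = 0.130), to the adaptor gene *Grb2* at 0.06 (0.01, 0.19, -0.06 and 0.12). Among the ligands and partner receptors, *Sirpa*, the receptor for the signal CD47, had even differences of -0.22, -0.19, -0.13 and -0.22 (adjusted p = 0.136). *Tgfb2* was highest, with 0.31, 0.03, 0.06 and 0.08 (adjusted p = 0.446), and 0 of the 8 genes with values were called, with 1 lower and 0 higher at an unadjusted p below 0.05.

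One more macrophage gene fell. Of 14 further border macrophage genes only 4 had values, and *Lyve1*, *Cbr2*, *F13a1* and *Ms4a7* were not among them. *Stab1*, a scavenger receptor of such macrophages and of some endothelia, had -0.52, -0.30, -0.17 and -0.40. It fell by 0.35 ± 0.15 (SD of 4 pairs), with an adjusted p of 0.0640 that became 0.202 without pair 2 and 0.294 without pair 4, in a range of 0.00320 to 0.294 over 13 settings. *Dab2*, an endocytic adaptor, was highest at 0.04, with 0.10, -0.11, 0.09 and 0.09.

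The disease-associated microglial genes with values were split in sign, and which cells of the tissue gave their RNA was not tested. Of 21 disease-associated microglial genes, 14 had values, 8 below 0, with a median of -0.05, 0 calls by limma and 1 lower and 0 higher at an unadjusted p below 0.05. *B2m*, the light chain of MHC class I, had 0.09, -0.42, -0.28 and -0.58 (adjusted p = 0.244), and *Timp2*, a metalloprotease inhibitor, had 0.35, 0.10, -0.10 and 0.14. *Cst7*, *Clec7a* and *Itgax*, which define this state, had no row. Of 20 inflammatory mediators and sensors, 6 had values and *Il1b*, *Tnf* and *Il6* did not. All 6 were below 0, from *Ptgs2* (-0.15, -0.45, -0.08 and -0.20, adjusted p = 0.223) to *Il18* (-0.03, 0.05, 0.06 and -0.13), with 0 called by limma and 1 lower at an unadjusted p below 0.05.

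Of 10 other complement genes, 6 had values, all with a mean below 0, with 0 calls by limma and 3 lower at an unadjusted p below 0.05. *C4b*, complement factor 4, had -0.06, -0.25, -0.44 and -0.78 (adjusted p = 0.183) and the regulator *Cd55* had -0.11, -0.21, 0.03 and 0.08. Of 14 genes of infiltrating leukocytes, *Cd4* alone had a row, with -0.40, 0.84, 0.12 and 0.27, and *Ccr2*, *S100a8*, *S100a9* and *Cd3e* had none.

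Markers of other cells and regions differed between the groups as well. Cortical excitatory markers had a list mean of -0.19, -0.36, -0.07 and -0.21 in the pairs, with 8 of 9 genes below 0 and 2 called lower, *Slc17a7* and *Neurod2*. At an unadjusted p below 0.05 from limma, 7 of the 9 were lower, and 6 were lower in all 4 pairs. The immediate early genes, which respond to neuronal activity, were below 0 in 13 of 13 cases, with -0.28, -0.66, -0.25 and -0.25 and 3 called lower, *Fos*, *Fosb* and *Junb*. All 13 were lower at an unadjusted p below 0.05, and 12 were lower in all 4 pairs. Septal and basal forebrain markers had 0.49, 0.67, 0.31 and 0.57, with 7 of the 8 genes with values called higher and all 8 higher at an unadjusted p below 0.05. The ependymal list had 0.21, 0.15, 0.29 and 0.18, with *Foxj1* and *Rarres2* called higher of 3 genes with values, and a mean over its 3 genes of 0.21. The inhibitory list had means of 0.09, 0.19, 0.20 and 0.21 but a median over genes of -0.03, since *Gad1*, *Gad2* and *Slc32a1* were called higher and the other 4 of its 7 genes, *Vip*, *Lhx6*, *Sst* and *Pvalb*, had means of -0.23 to -0.03, *Vip* and *Lhx6* being lower in all 4 pairs.

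The striatal list ran from -0.07 in pair 1 over 1.23 in pair 2 and 0.65 in pair 3 to 0.24 in pair 4, and the oligodendrocyte list from -0.15 in pair 1 over 0.45 and 0.85 to 0.54. No gene of these 2 lists was called by limma. At an unadjusted p below 0.05, 10 of 12 striatal and 10 of 11 oligodendrocyte genes were higher. In pair 1 all 11 oligodendrocyte genes were below 0. The mean of the 42 microglial and macrophage genes was -0.13, -0.16, -0.11 and -0.15 in the same pairs. With pairs 1 and 4 alone the median of the 42 genes was -0.12, with 0 of them called by limma. Over all genes, the fit with these pairs called 1 lower and 28 higher. With the striatal list as a covariate the median of the 42 genes was -0.11, again with 0 called. Over all genes the fit with this covariate called 1 lower and 5 higher, beside 65 and 123 without it. The septal, excitatory and immediate early list means, like that of the 42 genes, had one sign in all 4 pairs. The part of tissue composition or of these lists in the differences was not tested.

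Of the other glial and vascular lists, the astrocyte list had -0.06, -0.07, 0.05 and -0.04 in the pairs (11 genes), the endothelial list -0.0055, -0.07, 0.08 and -0.0057 (9 genes), and the mural list 0.01, 0.09, 0.09 and -0.03 (8 genes). None of these genes was called by limma, and 1 astrocyte gene was lower at an unadjusted p below 0.05. The oligodendrocyte precursor list had a mean of 0.11 ± 0.08 (SD of 4 pairs), and the list of fibroblast and meningeal genes -0.21, -0.21, 0.15 and -0.17, with 7 of 7 genes below 0 and a median of -0.13, both without a call (2 precursor genes higher and 1 fibroblast gene lower at an unadjusted p below 0.05). Whether the microglial mean differs from that of any of these lists was not tested.

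**Figure D4:**
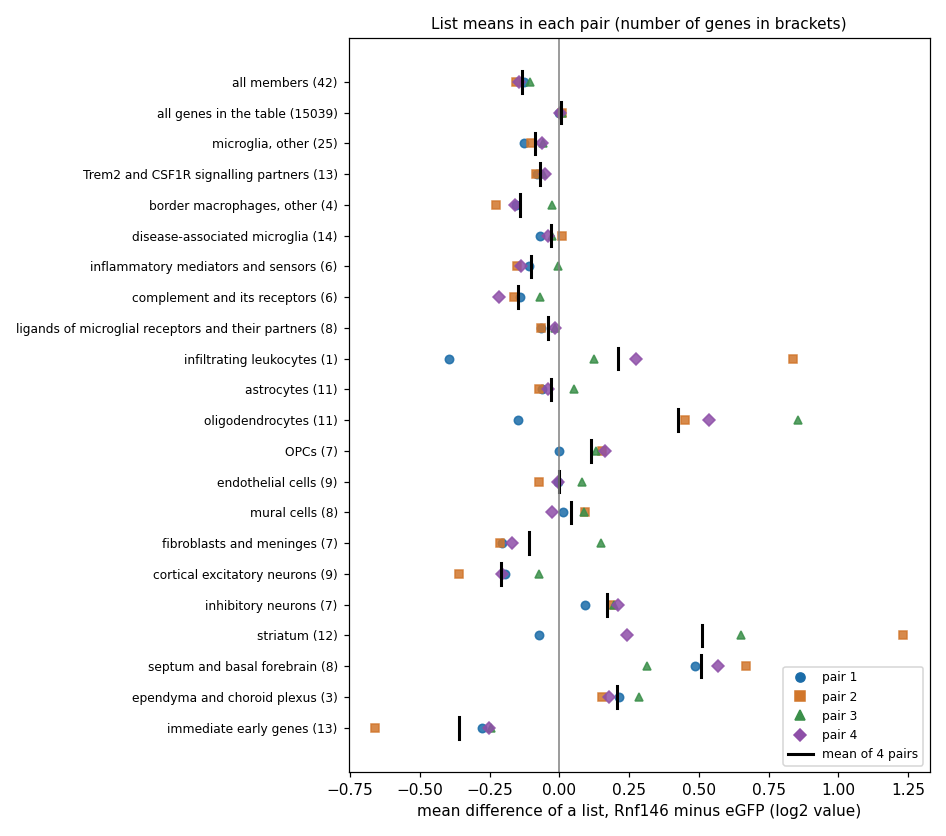
Mean difference over the genes of each list (x axis, log2 value, Rnf146 minus eGFP) in each of the 4 pairs (symbols), with their mean (black bars) and the number of genes with values in brackets. The 42 members lie together between -0.16 and -0.11, the striatal and oligodendrocyte lists are spread widely over the pairs, and the astrocyte, endothelial and mural lists straddle 0.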

How the data were processed

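Reads were trimmed (Cutadapt) by the authors and transcript abundance was estimated in Salmon 1.9.0 from GENCODE vM30 (GRCm39), and the deposited table gives log2 values per gene symbol. The deposited log2 values had been normalized and centred within same-numbered pairs; the normalization and transformation are not given in the sources used here. Their lowest value, 7.86, lies far above 0, as on scales that compress the changes of weakly expressed genes. DESeq2 is named in the submitters' processing notes. All 8 columns were matched to samples by name, with groups and replicate numbers from the labels. Centring fixes the correlation of same-numbered samples and leaves 3 residual degrees of freedom for a gene, so the replicate number was a block. Whether a sample is 1 mouse is not given in the sources used here, so p-values measure the spread between these same-numbered pairs of samples.

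Each gene's mean difference was estimated in R 4.3.3 by limma 3.58.1 (eBayes, trend on), with p-values adjusted over 15039 genes with no filter, and tested on simulated data. The members and lists were chosen with earlier results of these data known. Genes named with values are the called ones, the highest and lowest of each role group or list, and members with 1 sign in all pairs; *Cd68*, *Trem2*, *Spi1* and a few others complete their groups and were added after their values were seen, as were the absent genes named. Lists of other cells are given by their means, called genes and, for most lists, counts at an unadjusted p below 0.05. Promoters came from GRCm39 and GENCODE vM39 canonical transcripts (Python 3.11.15). The alternatives were no block, median centring, quantile normalization, the most weakly expressed genes left out, other variance models, array weights, a striatal covariate, each pair left out, an adjusted p of 0.05 and, chosen after seeing the data, pairs 1 and 4 alone.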

Additional observations from a re-analysis of the deposited data

Results flagged for a closer look

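Within a group of 4 pairs, the gap between an extreme value and its nearest neighbour was divided by the range of the 4 pair differences, for 73 items, and 4 of them exceeded Dixon's 95% critical value, 2 of these among the 42 members. Chance gives such a value in about 1 in 20 groups. *Irf8* had a ratio of 0.979, since pair 3 was at -0.24 and the other pairs at -0.10. *Cd14* had 0.965, since pair 3 was at 0.06 and the other pairs at -0.07. The mean of the fibroblast and meningeal list had 0.887, with pair 3 at 0.15, and the mean of the immediate early genes had 0.923, with pair 2 at -0.66.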

How the results depend on the processing

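The median difference of the 42 members stayed between -0.12 and -0.11 under every alternative tried, the pairs left out included, whereas the counts of calls depended on the alternative. Without the replicate block, 1571 genes were called lower and 1655 higher, with 26 members, 30 genes of the other microglial and immune lists and 56 of other cells. With array weights these counts were 134, 221, 7, 5 and 30. With the striatal covariate they were 1, 5, 0, 0 and 0, and with pairs 1 and 4 alone, chosen after seeing the data, 1, 28, 0, 0 and 4. At an adjusted p of 0.05 they were 13, 67, 1, 0 and 10. Leaving out 1 pair gave 0 to 119, 14 to 302, 0 to 6, 0 to 3 and 1 to 37. Fewer pairs leave fewer residual degrees of freedom; otherwise the cause was not tested.

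Mean differences near 0 changed sign. The striatal covariate gave -0.00836 for *Sall1*, 0.0209 for *P2ry13*, 0.0227 for *Gpr34*, 0.0495 for *Fcrls*, -0.115 for *Slc2a5*, -0.139 for *Hpgds*, 0.00406 for *Cd55* and -0.209 for *Cd4*. Array weights gave 0.00461 for *P2ry13*, 0.000705 for *Trem2*, -0.000713 for *Ly86* and 0.00600 for *Ltc4s*. Quantile normalization gave -0.00606 for *Ly86*. The use of pairs 1 and 4 alone gave 0.0409 for *P2ry13*, 0.000223 for *Gpr34*, 0.0150 for *Fcrls*, -0.113 for *Slc2a5*, 0.0174 for *Cd68*, -0.0925 for *Hpgds* and -0.0608 for *Cd4*. Leaving out single pairs, the values ran from -0.0950 to 0.00946 for *P2ry13*, -0.0330 to 0.0109 for *Gpr34*, -0.0512 to 0.0305 for *Trem2*, -0.0383 to 0.0383 for *Fcrls*, -0.0262 to 0.210 for *Slc2a5*, -0.107 to 0.000904 for *Olfml3*, -0.0134 to 0.0295 for *Ly86*, -0.0712 to 0.0142 for *Cd68*, -0.0503 to 0.108 for *Hpgds*, -0.0470 to 0.0242 for *Ltc4s*, -0.0365 to 0.0259 for *Il18* and -0.0958 to 0.000789 for *Cd55*. None of these genes was called with all pairs.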
